A study of Papio hamadryas with 17 samples.

Results

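The genes described here are 8 genes that kidney tubule cells are known to switch on, or raise, when they are injured and lose part of their differentiated state: VIM, TIMP1, SPP1, LCN2, VCAM1, CLU, SOX9 and CDH6. They were taken by name, and each was found by its symbol in the name field of the deposited transcript tables. All 8 were present, as 10 transcripts, among the 13850 genes of the female table, and 6 of them, as 8 transcripts, among the 9818 genes held in both the female and the male table. VIM and TIMP1 were held for females only, and their level in males was not analysed here.

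RNA had been sequenced from ultrasound-guided needle biopsies of the kidney cortex of 17 baboons of a research colony, 1 library per animal, to compare gene networks between the sexes. The 8 females were aged 15 to 19 and the 9 males 6 to 13, as labelled and without a unit. The labels give all 17 animals the same low-salt chow, no treatment, and ketamine and isoflurane anaesthesia. Each animal gave a single biopsy, which can differ from the next in its share of glomeruli, tubule segments and surrounding tissue.

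Female 1, female 2 and male 6 carried high signal of skeletal muscle genes and were left out of the main comparisons, which leaves 6 females and 8 males. In female 1 and female 2 the summed signal of 10 skeletal muscle genes was 122243 and 185238, against at most 25.9 in the other females. Such a sum is not given for male 6, and the 3 libraries were not alike in kidney signal. The kidney tubule gene UMOD was at 938.6 in male 6 and at 20.8 and 12.3 in female 1 and female 2. The males' library names fall into series A, with 5 of the 8 males, and series B, with 3, and all females have names of another series. Sex, age and name series therefore cannot be told apart. Values are the deposited signal, a scaled read abundance, after subtraction of its offset of 1 and summing over a gene's transcripts. They are not per length, so levels are compared between animals and never between genes. Outside the fits and correlations within females, only transcripts held in both tables were summed. For some other genes that is a part of the gene's signal. The 6 genes, LRP2 and UMOD have all their listed transcripts in both. Low values of a library come in steps, and a wider step was read as lower depth, which was not itself measured. A step was worth 0.0531 to 0.319 in the 14 libraries. It was widest in female 6, which was taken as the shallowest.

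When a nephron is injured, surviving tubule cells lose transporters and brush border, take on features of an immature or migrating epithelium, and either redifferentiate or remain in a secretory, inflammatory state. The proximal tubule is the most exposed segment, and its large endocytic receptor megalin, encoded by LRP2, marks its differentiated state. Several of the 8 genes also have a place in undamaged kidney: SPP1 and CLU are made by distal tubule segments, VIM by podocytes, vessels and stroma, VCAM1 by activated endothelium and parietal cells, and CDH6 by developing and adult proximal tubule.

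VIM encodes vimentin, an intermediate filament of mesenchymal cells that appears in regenerating tubule cells (sequence NW_018822938.1, 6992 to 15530, minus strand, 1 transcript). Its signal in the 6 females ran from 131.1 over a median of 155.5 to 271.9, with a mean of 175.3 ± 51.4 (SD, n = 6). Female 4 was the highest and the other 5 females lay between 131.1 and 191.2.

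TIMP1, an inhibitor of matrix metalloproteinases (NC_018172.2, 44743414 to 44747245, plus strand, 1 transcript), had a signal of 16.5 ± 4.21 (SD, n = 6), with a lowest value of 10.7, a median of 16.6 and a highest of 22.3. VIM and TIMP1 were the least variable of the 8 genes among the females, with coefficients of variation of 29.3% and 25.5%. Their correlation with each other was r = 0.45 over 6 females (two-sided exact permutation test, p = 0.383).

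SPP1 encodes osteopontin, a secreted phosphoprotein of injured and of distal tubule cells (NC_018156.2, 53604453 to 53612473, minus strand, 1 transcript). It was the most variable of the 8 genes. In females its signal ran from 2e-05 in female 5 over a median of 3.94 to 19.6 in female 6, and in males from 1.08 in male 2 over a median of 15.4 to 42.3 in male 1. The coefficient of variation was 123% in females and 92.0% in males, and 3 of the 8 males lay above every female while 2 of the 6 females lay below every male. Those 2, female 5 and female 3, lay at 0.000212 and 2.43 steps, so these 2 values rest on few or no reads.

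LCN2 encodes lipocalin 2, also called NGAL, an iron-siderophore binding protein that is released by injured tubules and by neutrophils (NC_018166.2, 96984853 to 96989179, minus strand, 1 transcript). Its signal was low in every library. It ran from 0.112 over a median of 1.57 to 3.18 in females, with the lowest values in female 3 and female 5, and from 0.888 over a median of 1.73 to 2.84 in males. These values correspond to 2 to 53.5 steps, so LCN2 rests on few reads and differences within a few steps were not detectable at this depth. Of 10 neutrophil markers LTF was the 1 held in these tables. Over its transcripts held in both it was higher in females, at 1.64 to 5.93 against 0.277 to 1.87 in males (log2 difference 0.89, limma adjusted p = 0.00970). Over all transcripts of the female table LTF was at 2.01 to 7.98 in the 6 females. Its part in the LCN2 values was not tested.

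VCAM1 encodes a cell adhesion molecule of activated endothelium and of tubule cells that have failed to repair (NC_018152.2, 98180019 to 98199491, plus strand, 1 transcript). Its signal ran from 4.50 over a median of 8.82 to 21.0 in females. In males it ran from 7.12 over a median of 12.7 to 15.6. The sexes overlapped, with 2 of 6 females below every male and 0 of 8 males above every female.

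CLU encodes clusterin, a secreted chaperone of stressed epithelium (NC_018159.2, 25765103 to 25782562, minus strand, 2 transcripts). Its signal ran from 99.8 in female 7 over a median of 173.2 to 332.5 in female 3, and in males from 102.5 over a median of 136.9 to 201.7. The female range held the whole male range. The share of the shorter transcript, XM_003902586.2, was 29.4% ± 10.3 (SD, n = 6) for the females and 25.5% ± 10.0 (SD, n = 8) for the males, which differ by less than that spread (two-sided exact permutation test, p = 0.423, adjusted p = 0.607 over 6 transcript comparisons). It was 49.0% in female 6 and 48.8% in male 2, next to 29.4% or less in the other females and 27.0% or less in the other males of the 14 libraries.

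SOX9, a transcription factor of nephron progenitors that marks regenerating tubule cells, had low signal (NC_018167.2, 63798480 to 63803976, plus strand, 1 transcript). It ran from 1.41 over a median of 2.37 to 8.59 in females, and from 1.75 over a median of 3.05 to 8.05 in males. In steps it lay between 17.0 in female 8 and 147 in male 1. In each sex a single animal stood above the rest, female 6 at 8.59 next to 3.59 and male 1 at 8.05 next to 4.15.

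CDH6 encodes K-cadherin, an adhesion molecule of the developing proximal tubule that is kept in the adult proximal tubule (NC_018157.2, 31162232 to 31302966, plus strand, 2 transcripts). Its signal ran from 4.39 over a median of 6.83 to 9.55 in females, and from 9.09 over a median of 15.2 to 22.1 in males. Of the 6 females 5 lay below every male, and of the 8 males 7 lay above every female. The exceptions were female 6 at 9.55 and male 2 at 9.09. Full parting with males higher, which CDH6 did not reach, was seen in 12.0% of the 9385 genes tested.

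**Figure D1:**
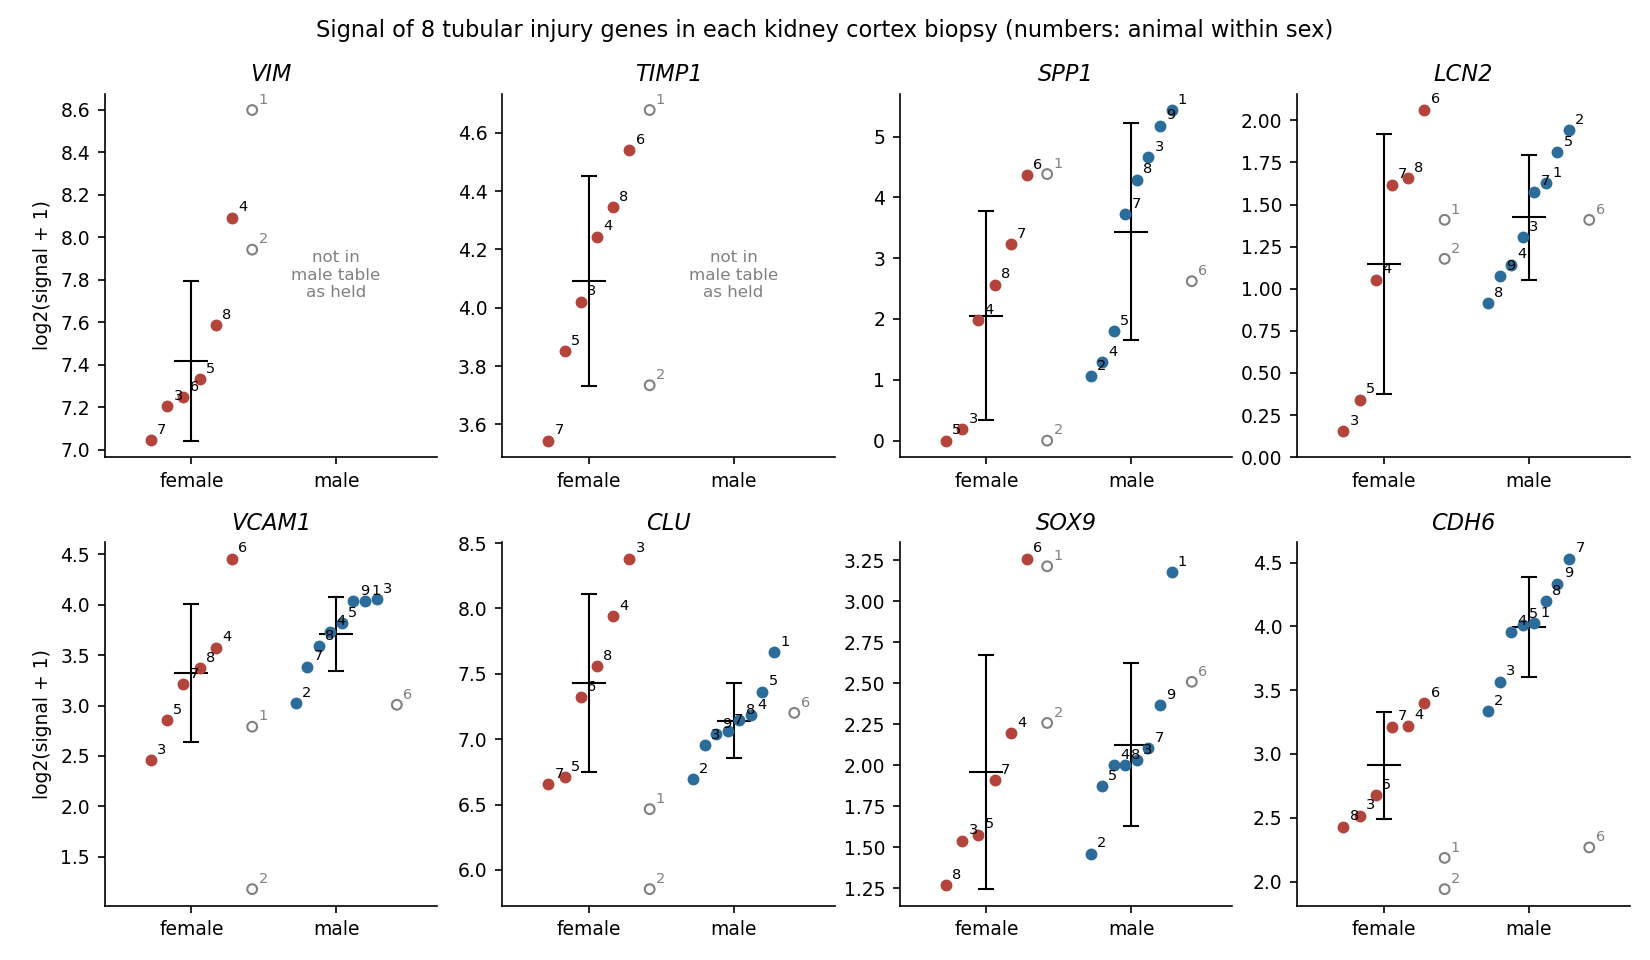
Signal of the 8 genes on a log2(signal + 1) axis, which does not start at 0 in every panel, 1 point per biopsy, numbered by animal within sex. Black bars give the mean and SD of the 6 females and 8 males, and open grey circles are female 1, female 2 and male 6. Of the 6 genes held in both tables, CDH6 is the gene in which the sexes are closest to parting. Female 6 is the highest of the 6 females in 6 of the 8 panels, a count not set beside all genes.

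Within each sex 1 animal led several genes, and no other animal led more than 1. Female 6 had the highest value of the 6 females in 6 of the 8 genes, all but VIM and CLU. Male 1 had the highest value of the 8 males in 3 of the 6 genes, SPP1, CLU and SOX9. Female 6 was also the shallowest library as judged by its step. It had the highest immediate early level of the 6 females, a mean of 4.51 over 9 genes on the log2(signal + 1) scale. Male 1 had the highest immediate early level of all 14, at 5.50. Whether depth or the immediate early level bears on these values was not tested.

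The sexes were compared with limma over 9385 genes, those whose signal reached 1 in 7 or more of the 14 libraries, a filter that all 6 genes held in both tables passed. CDH6 was lower in females and was the 1 gene of the 6 that passed an adjusted p of 0.05. Over all genes tested 3639 passed (38.8%), 3429 of them lower in females (36.5%) and 210 higher (2.24%). After median scaling of the libraries 2 of the 6 passed, CDH6 as lower and CLU as higher, beside 29.9% of all genes, 15.1% as lower and 14.8% as higher. The signal of CDH6 averaged 6.78 ± 2.20 (SD, n = 6) among females and 15.4 ± 4.22 (SD, n = 8) among males. On the log2 scale the difference was -1.09 with an SE of 0.21 (limma adjusted p = 0.000858).

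The median log2 difference of all genes tested was -0.35, female minus male, and changes are best read against it. Relative to that median CDH6 was at -0.73, and after the median scaling, which moves the median of all genes to 0.03, its difference was -0.67 (limma adjusted p = 0.0143). It was -0.87 against the males of series A alone (limma adjusted p = 0.0160) and -1.44 against those of series B alone (limma adjusted p = 0.00307). It was -1.11 when female 1, female 2 and male 6 were included (limma adjusted p = 0.0209), a fit in which 13.7% of all genes passed. With age as a term it was -1.08 and no longer passed (limma adjusted p = 0.819), and with that term 0 of the 9385 genes passed.

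CLU was the 1 gene of the 6 with a higher mean in females, 187.8 ± 89.3 (SD, n = 6) against 142.5 ± 29.7 (SD, n = 8), and it did not pass (log2 difference 0.29, SE 0.25, limma adjusted p = 0.372). After median scaling its difference was 0.75 and passed (limma adjusted p = 0.0202). Its difference was -0.04 in the unscaled fit that includes female 1, female 2 and male 6.

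SPP1 had the largest difference in size, -1.38, and did not pass (SE 0.82, limma adjusted p = 0.198), since its SD on the log2 scale was 1.72 in females and 1.78 in males. VCAM1 was at -0.39 (limma adjusted p = 0.250), LCN2 at -0.28 (limma adjusted p = 0.476) and SOX9 at -0.17 (limma adjusted p = 0.686). Relative to the median of all genes these 3 lay at -0.04, 0.08 and 0.18, and VCAM1 and SOX9 changed sign with median scaling, to 0.03 and 0.18. VCAM1 passed when female 6 was left out, at -0.62 (limma adjusted p = 0.0352). The median difference of the 6 genes was -0.33, beside -0.35 over all genes tested.

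CDH6 was not the 1 proximal tubule gene to differ. LRP2, not itself an injury gene, averaged 67.1 ± 42.6 (SD, n = 6) among females and 214.4 ± 56.4 (SD, n = 8) among males without overlap, which 12.0% of genes tested also showed in that direction. Its log2 difference was -2.01, with an SE of 0.44 (limma adjusted p = 0.00222). With female 1, female 2 and male 6 included LRP2 was at -2.65 and did not pass (limma adjusted p = 0.0596), nor did it with age as a term, at -0.78 (limma adjusted p = 0.927). Of 19 proximal tubule markers 18 were lower in females and 1 did not pass, beside 36.5% of all genes called lower, with a median difference of -2.34. After median scaling 13 of the 19 were lower, beside 15.1% of all genes. With the 3 muscle-rich libraries 10 were lower, beside 13.3% of all genes. On the log2(signal + 1) scale, the mean level of these 19 markers lay between 2.60 and 7.14 in the females and between 7.17 and 8.48 in the males. In bulk tissue, fewer cells of a type and less RNA per cell cannot be told apart.

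A longer list of 49 other injury and repair genes held 29 that could be tested. Of these 3 were higher in females, 4 were lower and 22 did not pass, beside 2.24% of all genes called higher and 36.5% called lower. The median difference of the list was -0.05, and that of all genes tested -0.35. After median scaling 9 of the 29 were higher, 2 were lower and 18 did not pass, with a median difference of 0.37, beside 14.8% of all genes called higher and 15.1% called lower. HAVCR1, the gene of the injury marker KIM-1, was not analysed here. In the unscaled values the 4 lower genes were CDH2, ITGB8, HMOX1 and ITGAV. CDH2, the N-cadherin of proximal tubule junctions, averaged 4.30 ± 2.80 (SD, n = 6) among females and 15.99 ± 5.18 (SD, n = 8) among males, or -1.81 on the log2 scale (limma adjusted p = 0.000462). ITGB8 and ITGAV, integrin subunits that pair to activate TGF-beta, were at -1.38 and -0.79, and HMOX1, heme oxygenase 1, at -1.14.

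The 3 higher genes were KRT19, SOX4 and CRYAB. KRT19, a keratin of collecting duct and parietal cells that is also 1 of the parietal markers, was at 0.77 (limma adjusted p = 0.0329), the progenitor factor SOX4 at 0.66 (limma adjusted p = 0.0458) and the small heat shock protein CRYAB at 0.56 (limma adjusted p = 0.0466). In the fit that includes female 1, female 2 and male 6, none of these 3 passed, and ITGAV did not either. After median scaling HMOX1 and ITGAV did not pass, and CDH2, ITGB8, KRT19, SOX4 and CRYAB did. Leaving out 1 library at a time, KRT19 passed in 7 of 14 fits, CRYAB in 4 and SOX4 in 2, and the 4 lower genes in all 14.

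**Figure D2:**
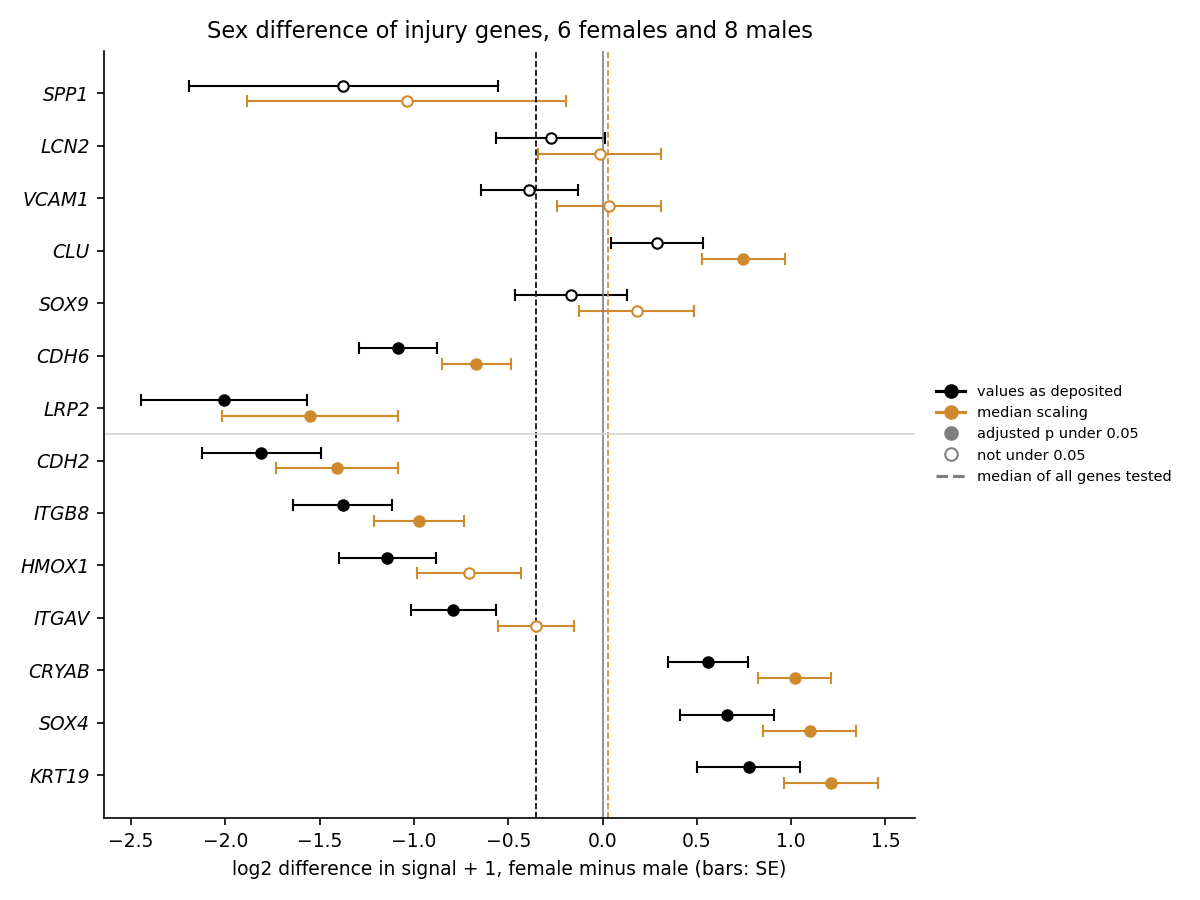
Log2 difference in signal + 1, female minus male, with its SE, for the 6 genes held in both tables, LRP2 and the 7 genes of the longer injury list that passed, in 6 females and 8 males. Black is the values as deposited and orange after median scaling, filled points have an adjusted p under 0.05, and dashed lines are the median of all genes tested, -0.35 and 0.03. CDH6 lies below both lines in both scalings, and CLU is filled after median scaling alone.

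Age within females and name series within males gave 0 called genes, members or not. In the 6 females 0 of 12858 genes were called for age with limma (0.0%). At an unadjusted p under 0.05 there were 289, and 0 of the 8 genes were among them. The slopes of the 8 genes ran from -0.48 for SPP1 to 0.18 for SOX9 in log2 units per unit of labelled age. Between the 5 males of series A and the 3 of series B limma called 0 of 9448 genes (0.0%), and 689 had an unadjusted p under 0.05. CDH6 was among those 689, with a log2 difference of -0.57, series A minus series B (limma adjusted p = 0.636), and LRP2 was at -0.55 (limma adjusted p = 0.666).

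LRP2 marks the differentiated proximal tubule, so each gene was correlated with it across the 14 animals. CDH6 was high where LRP2 was high, with r = 0.84 and Spearman's rho = 0.90 (two-sided permutation test with 100000 resamples, adjusted p = 0.000497 for r). It was the 1 of 6 genes called, and of the 9384 genes set against LRP2 1910 were called (20.4%), 1664 of them positive (17.7%). Without female 3 and female 4, the 2 animals farthest from the median LRP2 level, CDH6 and LRP2 had r = 0.97.

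Both genes also differed between the sexes, so the relation was examined within them. With each sex centred on its own mean, r was 0.58 (permutation p = 0.0163, adjusted p = 0.181) and 0 of the 6 genes were called, beside 3.9% of all genes. Within the 8 males r was 0.90 (two-sided exact permutation test, p = 0.00360, adjusted p = 0.0723, with 1.71% of all genes called), and within the 6 females 0.58 (exact p = 0.210, with 0.0% called). In the males, male 7 and male 9 had the highest values of both genes and male 2 the lowest of both. Over all 17 libraries r was 0.89.

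CLU ran the other way, with r = -0.65 and rho = -0.37 (permutation p = 0.0138 for r, adjusted p = 0.0618). The value rested on female 3 and female 4, which had the 2 lowest LRP2 and the 2 highest CLU values, and without them r was 0.05. Within females r was -0.83 (two-sided exact permutation test, p = 0.0236, adjusted p = 0.238) and within males 0.13 (exact p = 0.772). Over all 17 libraries r was 0.24, female 1 and female 2 being low in both CLU and LRP2. After median scaling r was -0.83 (permutation adjusted p = 0.00427).

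Taken over both sexes, the other 4 genes had a positive r with LRP2. Over the 14 animals r was 0.60 for SPP1, 0.63 for VCAM1, 0.53 for LCN2 and 0.35 for SOX9, and none was called (permutation adjusted p of 0.0741, 0.0659, 0.1498 and 0.391). Their rho was lower, 0.43, 0.45, 0.10 and 0.35. Without female 3 and female 4 the 4 values of r were 0.46, 0.41, 0.03 and 0.34. VIM and TIMP1 had r = -0.12 and -0.03 in the 6 females (exact p = 0.771 and 0.936).

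**Figure D3:**
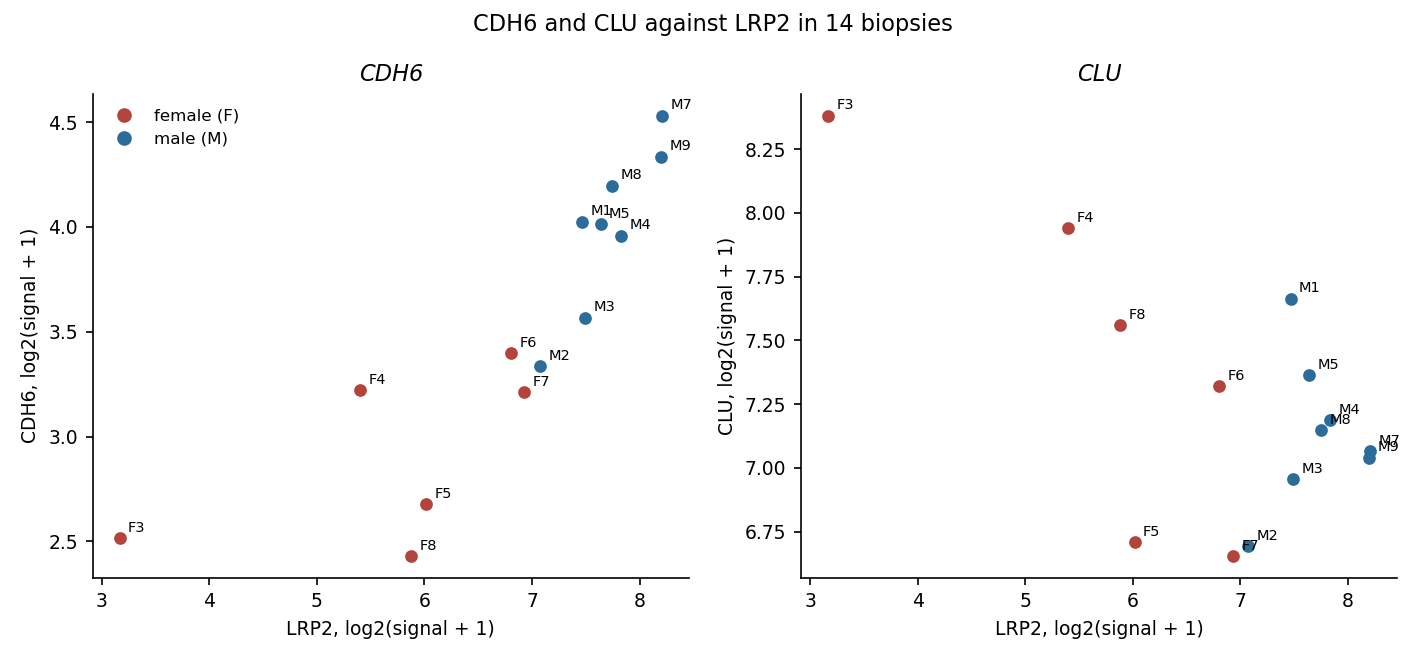
CDH6 (left) and CLU (right) against LRP2, each as log2(signal + 1), in 6 females (F, red) and 8 males (M, blue), numbered by animal. CDH6 and LRP2 had r = 0.84 over the 14 animals, and the r of -0.65 for CLU rested on F3 and F4 at the left.

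Levels of other cell types' markers were set beside the genes too. Each gene was compared with the mean level of 9 marker lists, a comparison chosen after the values were seen. Over the 14 animals CLU had r = 0.80 with 6 parietal epithelium markers (permutation adjusted p = 0.0235, 5.77% of all genes called) and r = -0.68 with 19 proximal tubule markers (adjusted p = 0.0489, 19.3% called). Without female 3 and female 4 these were 0.53 and -0.10. By Spearman's rho neither was called, at 0.56 (adjusted p = 0.207) and -0.42 (adjusted p = 0.241), and after median scaling the parietal value was 0.50 (adjusted p = 0.335) and the proximal tubule value -0.87 (adjusted p = 0.00226). Within the 6 females, where more of each list is held, r was 0.87 with 7 parietal markers, 0.90 with 10 fibroblast and pericyte markers, 0.84 with 8 thick ascending limb markers, 0.81 with 8 leukocyte markers, -0.82 with the proximal tubule list and -0.84 with 8 podocyte markers. None of the 6 passed the adjustment over all genes (two-sided exact permutation tests, adjusted p from 0.170 to 0.876). Female 3 held an end of all of these lists but the leukocyte list. Its mean log2 levels were the lowest of the 6 females for proximal tubule, 2.63, and podocyte, 2.22, and the highest for parietal, 4.71, thick limb, 7.35, and fibroblast and pericyte, 6.29. In the 8 males r was 0.73 with the parietal list, -0.70 with the podocyte list, 0.52 with the thick limb list and 0.34 with the leukocyte list. It was -0.09 with the fibroblast list and -0.25 with the proximal tubule list. None of these passed either (two-sided exact permutation tests, adjusted p from 0.669 to 0.975). Over the 14 animals CLU had r = -0.81 with the podocyte list (permutation adjusted p = 0.0590) and 0.70 with the fibroblast list (adjusted p = 0.284). The part of these markers in the CLU values was not tested.

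VIM and TIMP1 were set against the same lists in the 6 females. VIM had r = 0.53 with the fibroblast and pericyte list, 0.49 with the leukocyte list, -0.01 with the podocyte list and -0.03 with the endothelium list, and the smallest exact p of these 4 was 0.285. TIMP1 had r = 0.61 with the leukocyte list (exact p = 0.199) and -0.75 with the distal tubule and collecting duct list (exact p = 0.0722).

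Whether the genes vary together between animals was asked over the 15 pairs of the 6 genes held in both tables. Of the 15 pairs 0 were called after adjustment over all genes, 11 had a positive r, the median r was 0.43 and 6 had a permutation p under 0.05. For comparison, the share of all genes with a p under 0.05 was 10.2% with SPP1, 6.47% with LCN2, 9.69% with VCAM1, 15.2% with CLU, 5.21% with SOX9 and 46.7% with CDH6. The share called was 0.0% with SPP1, LCN2, VCAM1 and SOX9, 0.0426% with CLU and 37.1% with CDH6.

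The 3 highest values joined SPP1, VCAM1 and SOX9. VCAM1 and SOX9 had r = 0.77 (rho = 0.76, permutation p = 0.00133, adjusted p = 0.449), SPP1 and VCAM1 r = 0.76 (rho = 0.77, permutation p = 0.00184, adjusted p = 0.416) and SPP1 and SOX9 r = 0.69 (rho = 0.76, permutation p = 0.00434, adjusted p = 0.678). None of the 3 passed the adjustment. The 3 were positive in both sexes, at 0.84, 0.87 and 0.68 within females and 0.66, 0.63 and 0.74 within males. Leaving out 1 animal at a time, their r stayed between 0.61 and 0.81, and without the 2 animals farthest from the median of the first gene named the 3 were 0.68, 0.59 and 0.64. Over all 17 libraries they were 0.26, 0.67 and 0.61.

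LCN2 did not go with SPP1 and VCAM1 in both sexes. SPP1 and LCN2 had r = 0.98 in the 6 females (two-sided exact permutation test, p = 0.00556, adjusted p = 0.743). In the 8 males they had r = -0.43 (exact p = 0.263). VCAM1 and LCN2 had 0.85 in the females and -0.42 in the males. The difference between the sexes was not tested. In females the lowest LCN2 and SPP1 values were in the same 2 animals, female 3 and female 5, and the highest of both in female 6. That highest LCN2 value lay at 9.96 steps. In female 3 and female 5 both genes lay at 2.83 steps or less, so these values rest on few or no reads. Over the 14 animals SPP1 and LCN2 had r = 0.43, and -0.16 without the 2 animals farthest from the median SPP1 level. CLU and SOX9 had r = 0.79 in males (exact p = 0.0343) and -0.08 in females, and SOX9 and CDH6 had 0.86 in females (exact p = 0.00417) and 0.41 in males. Within females 20 of 28 pairs were positive, 5 had an exact p under 0.05 and 0 were called, where the share of all genes with such a p ran from 1.34% with VIM to 11.01% with CLU, and 6 animals cannot give an exact p below 0.00139. Within males 10 of 15 pairs were positive, 2 had an exact p under 0.05 and 0 were called, where that share ran from 4.21% with CLU to 19.8% with CDH6.

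UMOD, the gene of uromodulin in the thick ascending limb, was set beside the genes since SPP1 and CLU are also made in that part of the nephron. With UMOD, SPP1 had r = 0.77 in males (exact p = 0.0254) and -0.66 in females (exact p = 0.139). VCAM1 and SOX9 did the same, at 0.64 and 0.71 in males and -0.75 and -0.77 in females, and 0 of these passed the adjustment over all genes. CLU was positive in both sexes, at 0.51 in males and 0.64 in females. The differences between the sexes were not tested.

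**Figure D4:**
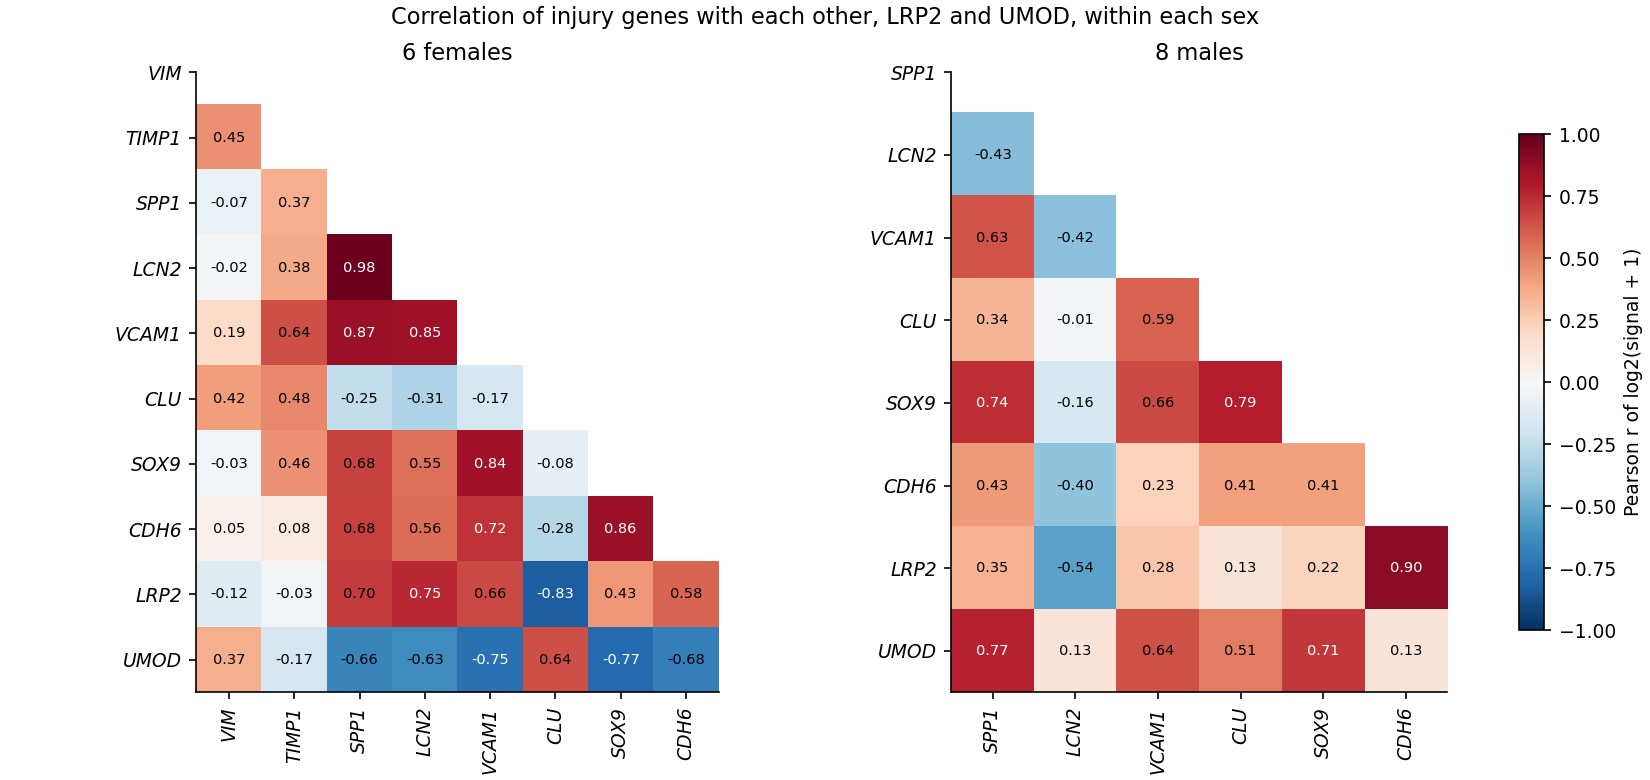
Pearson r of log2(signal + 1) for the genes with each other and with LRP2 and UMOD, in the 6 females (left) and the 8 males (right), on a colour scale from -1 to 1. SPP1, VCAM1 and SOX9 are positive with each other in both panels. LCN2 is positive with SPP1 in females (0.98), where female 3 and female 5 lay at 2.83 steps or less in both, and negative in males (-0.43).

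The immediate early level is known to rise within minutes of tissue handling and of injury. Of the 6 genes it had its highest r with the same 3, none of them called. In the 8 males the order of SPP1, from male 1 over male 9, male 3, male 8, male 7, male 5 and male 4 to male 2, was the order of the mean level of 9 immediate early genes (FOS, JUN, EGR1 and others), which ran from 5.50 to 2.94. Over the 14 animals r with that level was 0.82 for SPP1 (rho = 0.85, permutation p = 0.000190, adjusted p = 0.356), 0.84 for SOX9 (rho = 0.86, permutation p = 0.000330, adjusted p = 0.442) and 0.74 for VCAM1 (rho = 0.75, permutation p = 0.00258, adjusted p = 0.907). None passed the adjustment, under which 0.0% of all genes were called, and 3.79% of all genes had a permutation p under 0.05.

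With the 2 animals farthest from the median immediate early level left out, male 1 and male 9, r was 0.76 for SPP1, 0.77 for SOX9 and 0.78 for VCAM1. With each sex centred on its mean r was 0.81, 0.84 and 0.71. LCN2 had r = 0.19, CLU 0.05 and CDH6 0.48. Over all 17 libraries r was 0.56 for SPP1, 0.83 for SOX9 and 0.05 for VCAM1. The part of the immediate early level in the values of SPP1, SOX9 and VCAM1 was not tested.

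**Figure D5:**
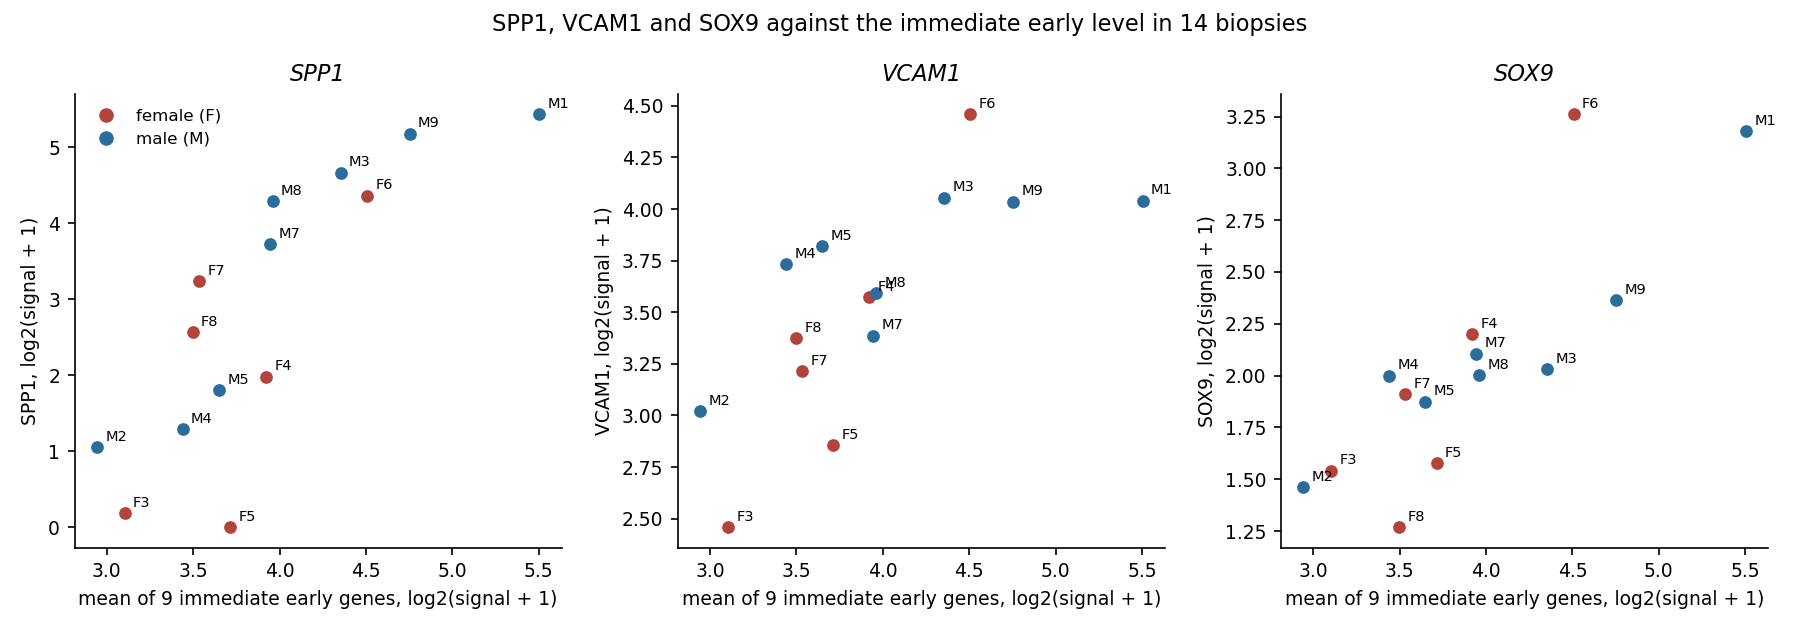
SPP1, VCAM1 and SOX9, each as log2(signal + 1), against the mean log2(signal + 1) of 9 immediate early genes in 6 females (F, red) and 8 males (M, blue), numbered by animal. The 8 males have the same order on both axes of the SPP1 panel and the 6 females do not. M1 and F6 lie at the upper right of the SOX9 panel.

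For each gene the 3 genes of most similar profile were taken by Pearson's r over the 14 animals with each sex centred (over the 6 females for VIM and TIMP1), among genes above the median level. SPP1 and VCAM1 shared their nearest gene, PMM1, at r = 0.84 and 0.83, followed by LYRM4 and CTSH for SPP1 and by BEND7 and CTH for VCAM1. For SOX9 they were ACBD4 at 0.85, the immediate early gene EGR1 at 0.83 and USP31 at 0.82. For CLU they were HOXB3 at 0.94, GPIHBP1 at 0.90, a capillary endothelial protein that holds lipoprotein lipase, and PTPRU at 0.88. For CDH6 they were LMTK2, LOC101004595 and STOM, each at 0.90. The nearest gene to LCN2 was LOC108584334 at 0.77. With 6 animals VIM reached 0.997 with DPYSL3 and 0.97 with the tropomyosin gene TPM2, and TIMP1 0.97 with SURF2. These are the highest of all genes above that level and carry no test.

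The authors' deposited table also gives each transcript a co-expression module colour, built per sex. In the authors' deposited table of females SPP1, SOX9 and TIMP1 had the colour greenyellow, held by 2.31% of its transcripts, and VCAM1, LCN2 and the longer CDH6 transcript had cyan, held by 6.48%. VIM had blue, the colour of 41.7% of transcripts, and the CLU transcripts had tan and grey60. In males, for the rows of the authors' deposited table held here, SPP1, SOX9, VCAM1 and the longer CLU transcript had purple, the colour also of UMOD, held by 12.4% of transcripts. LCN2 had pink there. The longer CDH6 transcript had blue, the colour also of LRP2, held by 17.7% of transcripts. In females LRP2 had pink, a colour of neither CDH6 transcript. The other CDH6 transcript had darkorange in females and black in males. Colours come from the libraries of the same tables and are not independent of the correlations above.

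The 2 CDH6 transcripts differ in their start, and the deposited values split the gene between them in a repeating way. The second transcript, XM_017959464.2, had 51.6% of the gene's signal in each of female 2, female 8 and male 6 and 1.68% in each of female 1 and female 6, values equal within 0.001 percentage points. Among the 14 libraries its share was 24.3% ± 24.0 (SD, n = 6) for the females and 27.2% ± 12.0 (SD, n = 8) for the males (two-sided exact permutation test, p = 0.761). Taken by itself, the first transcript was lower in females, at 5.14 ± 2.40 (SD, n = 6) against 11.2 ± 3.80 (SD, n = 8), or -1.03 on the log2 scale (two-sided exact permutation test, p = 0.00266, adjusted p = 0.0160 over 6 transcript comparisons). The second was at -1.15 on that scale and did not pass (exact p = 0.0280, adjusted p = 0.0839). The tests of the share and of each transcript by itself depend on the deposited split, whose origin was not tested. The sum over both transcripts, which does not depend on the split, is the value used for CDH6 above.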

How the data were processed

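For each sex the authors deposited a table of signal values, 1 row per transcript and 1 column per library, per the file headers; the lowest value is an offset of 1. Partek is the 1 tool named, per the submitters' processing notes. Aligner, scaling and genome build: not given in the sources used here. The male table was held in part, 17119 complete rows, and the tables were joined by transcript identifier. Coordinates are those of the tables.

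The offset was subtracted and transcripts were summed per gene. Fits and correlations within females used all transcripts of the female table, and the others only transcripts held in both tables. Between 58.1% and 72.6% of low values were whole multiples of a library's step (tolerance 0.1 of a step), so reads could not be recovered and counts were not tested. Summed signal over the shared transcripts ran from 255529 to 433540 in the 14 libraries, and read totals are unknown. Genes whose signal reached 1 in 0.5 or more of the libraries were fitted on the log2(signal + 1) scale by limma 3.58.1 (R 4.3.3, prior variance as a trend on the mean), adjusted over all genes by Benjamini-Hochberg, threshold 0.05. Fold changes on this scale understate those of low genes. Correlations were tested in Python 3.11.15 (numpy 2.4.6; scipy 1.17.1) by 100000 resamples of the libraries, or exact enumeration within a sex, adjusted over all genes tested. A pair was called where the larger of its 2 adjusted p was under 0.05. Both tests were checked on simulated data.

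The genes and lists were chosen with earlier results of these data known. Named genes are the 8, LRP2, UMOD, the 3 nearest genes of each, at most 4 genes called in each direction from the longer injury list, and HAVCR1. LTF, FOS and JUN were named after their values were seen. Alternatives were other pseudocounts, filters and scalings, the 3 muscle-rich libraries included, age as a term, each male series alone, and each library left out. Each library is 1 animal, numbered within its sex in deposit order.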

Additional observations from a re-analysis of the deposited data

Results flagged for a closer look

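The highest and the lowest animal of each sex were set against the others of that sex by the gap to the next animal over the whole range, in 16 sets of values, the 8 genes and LRP2. On the log2(signal + 1) scale used for the tests 0 animals stood apart. On the signal itself SOX9 had 2. Female 6, at 8.59 next to 3.59, had a gap of 0.696 of the female range, above the 95% critical value of Dixon for 6 animals. Male 1, at 8.05 next to 4.15, had a gap of 0.619 of the male range, above that for 8 animals. Chance alone passes such values in about 5% of sets, and both animals were kept in every main comparison.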

How the results depend on the processing

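Between the sexes 3639 of 9385 genes tested were called. With a signal of at least 10 it was 2132 of only 4163 tested. With female 1, female 2 and male 6 included it was 1259 of 9212. Against the males of series A alone it was 1914 of 9197, and with age as a term 0 of 9385. When each library was left out the number called ran from 3094 of 9268 to 4000 of 9289. Age in females gave 0 genes with each female left out. The male series gave 0 to 3, with 3 without male 4 and 1 without male 8. Of the 6 genes, 1 was called with LRP2, 2 after median scaling (CDH6 and CLU) and with the muscle-rich libraries (CDH6 and VCAM1), and 0 with each sex centred. With each library left out 1 to 2 were called: CLU joined CDH6 without female 5, VCAM1 without female 6 and SPP1 without male 4. Pairs called were 0, 1 with the muscle-rich libraries (VCAM1 and CDH6) and 0 with each library left out.

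Signs that turned, all of values that did not pass, were SPP1 with age as a term (2.61), VCAM1 after median (0.034) and upper quartile scaling (0.019), SOX9 after the same (0.18 and 0.17), and CLU with the muscle-rich libraries (-0.036) and with age as a term (-0.22). With LRP2 they were CLU with the muscle-rich libraries (0.24) and without female 3 and female 4 (0.050), and SOX9 with the muscle-rich libraries (-0.19). Within males alone LCN2 was negative with LRP2 (-0.54), CLU was positive (0.13), and the rho of VCAM1 was negative (-0.14). The cause was not tested. CDH6 kept its sign and its call between the sexes in every alternative but age as a term, from -1.44 to -0.59. Spearman's rho and other pseudocounts changed no count for LRP2 or pairs. No paired analysis was possible because the animals of the sexes share no number in the labels. LRP2 lost its call between the sexes with the muscle-rich libraries and with age as a term. Depth limits LCN2, at 2 to 53.5 steps, and SPP1 in female 3 and female 5, at 2.43 steps or less.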
